A study of Mus musculus with 7 samples.

Results

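The genes of vesicle release were followed in ribosome-bound RNA of Kiss1 cells in the AVPV (anteroventral periventricular nucleus) of the mouse preoptic area, which make the peptide kisspeptin. They were taken by gene symbol: the synaptotagmins, syntaxins, syntaxin-binding proteins, VAMPs, SNAP23, SNAP25, SNAP29, SNAP47 and AP180 (Snap91), complexins, RIMs, Munc13s (Unc13), Doc2 proteins, synapsins, SV2 proteins, synaptophysin, synaptoporin, Bassoon and Piccolo. This symbol rule was set with earlier results of these data known. The rule found 77 genes among the 55384 listed. The mice were C57BL/6 females of the genotype Kiss1Cre+/Rpl22HA+/+, in which Kiss1-driven Cre switches on an HA tag on the ribosomal protein Rpl22, and ribosomes carrying the tag were isolated from AVPV micropunches. Each library pooled 4 brains, so the spread and the p-values below are between pools and not between animals. Per the labels, 4 libraries (GDX) came from ovariectomized females without estradiol and 3 (E2) from females treated with estradiol. The dose and duration of estradiol, the age of the mice and the ovarian state of the treated mice were not given in the sources used here.

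Vesicle release rests on a small fusion machine. A syntaxin and a SNAP25-type protein on the plasma membrane zip up with a VAMP on the vesicle, and together they form the SNARE complex. Complexins clamp and support the partly zipped complex, RIM and Munc13 proteins dock and prime vesicles at the active zone, and synaptotagmins with calcium-binding C2 domains trigger fusion. Neurons use these parts for clear vesicles with GABA or glutamate and, with partly different isoforms, for dense-core vesicles with peptides such as kisspeptin.

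Libraries held 29207544 to 36213127 expected counts, and the 77 genes took 1.295% to 1.364% of them. Levels are CPM, expected counts relative to the TMM-scaled library total, and 74 of the 77 genes had enough counts to be tested. Kiss1 itself was 44.5 to 113 CPM in the GDX and 379 to 485 CPM in the E2 libraries, where its level also depends on how counts were divided with an overlapping annotated gene. All 12 pan-neuronal markers outside the symbol rule were detected, and their mean log2 CPM was 8.12 to 8.20 in GDX and 8.24 to 8.30 in E2. Markers of other cells were present too. The mean log2 CPM over 40 astrocyte, oligodendrocyte, microglial and endothelial markers was 5.97 and 5.80 in GDX replicates 1 and 4, 5.40 and 5.26 in GDX replicates 2 and 3, and 4.98 to 5.25 in the E2 libraries. In the order above, the exact two-sided permutation tests of these 2 scores gave p = 0.0286 and p = 0.114, or 0.157 and 0.21 adjusted over 11 marker lists, and 0.0286 is the smallest p the design allows. None of the 40 markers was at 0. By list, the groups did not overlap in the astrocyte and endothelial scores, which were lower in E2, but overlapped in the oligodendrocyte and microglial scores. The ependymal list was not part of the pooled score. Its mean log2 CPM was 3.25 to 4.24 in GDX and 2.14 to 3.17 in E2 (exact permutation p = 0.0571, or 0.189 adjusted over the 11 lists). Of its 5 markers 1 was called, lower in E2. In such pooled material fewer cells and less RNA per cell cannot be told apart.

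With estradiol, 5 of the 74 tested release genes rose, 3 fell and 66 did not pass an adjusted p of 0.05 (edgeR's quasi-likelihood test, Benjamini-Hochberg adjustment over all tested genes). The share called was 10.8%, against 3.88% of all 18282 tested genes (2.55% higher and 1.33% lower). An unadjusted p under 0.05 was reached by 17 of the 74, and by 3066 of all 18282 tested genes. When scarce genes (mean under 5 CPM) were set aside, 12.1% of 66 release genes and 5.14% of 12171 genes were called. Because the members were chosen with earlier results of these data known, these shares are descriptions only. The 5 rises were the synaptotagmin genes Syt6, Syt2 and Syt10, the RIM gene Rims4 and the SV2 gene Sv2b. The 3 falls were Syt5, Syt16 and the synaptoporin gene Synpr. The median log2 fold change over the 74 genes was 0.03, beside 0.00 over all tested genes and 0.13 over the pan-neuronal markers. Groups did not overlap for 15 of the 74 genes, 6 higher and 9 lower in E2, and this was so for 16.5% of all tested genes (8.43% higher and 8.06% lower). 

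**Figure D1:**
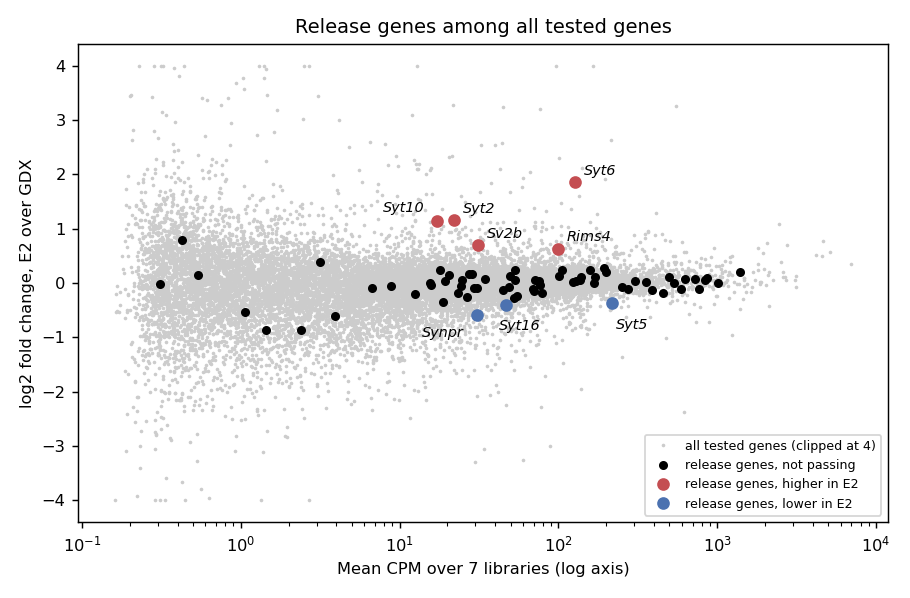
Mean level of each tested gene over the 7 libraries (CPM, log axis) against its log2 fold change, E2 over GDX, with all 18282 tested genes in grey, the 66 release genes that did not pass in black, and those higher or lower in E2 in red or blue. Syt6 stands highest among the release genes at 1.86, and most of the abundant ones lie close to 0.

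Synaptotagmins held 5 of the 8 calls, in the class with the most tested genes. With Doc2 included, 26.3% of this class was called, against 3.88% of all tested genes. Of 20 synaptotagmin and Doc2 genes 19 were tested, and 3 rose, 2 fell and 14 did not pass, with a median log2 fold change of −0.11. The class as a whole stayed at nearly the same summed level, 2656 ± 35.9 CPM (SD, n = 4) in GDX and 2651 ± 23.2 CPM (SD, n = 3) in E2.

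Syt6 encodes a synaptotagmin of the group with disulfide-forming cysteines near its N terminus, best known from the acrosome of sperm. Its levels were 54.6, 60.2, 54.8 and 71.0 CPM in GDX replicates 1 to 4 and 227, 210.5 and 216 CPM in E2 replicates 1 to 3. Every E2 library was far above every GDX library. The mean rose 3.62-fold, from 60.1 ± 7.67 to 217.8 ± 8.599 CPM, with a log2 fold change of 1.86 ± 0.10 (SE) and an adjusted p of 5.95e-07. The gene (ENSMUSG00000027849) lies on the plus strand at chr3:103575231-103645569 (GRCm38), and 505 bp of its exons lie opposite Atg4a-ps, which held 0.145 CPM in GDX and 0 in E2.

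Syt2, a close relative of Syt1 and a fast calcium sensor of synchronous release, was much less abundant. It held 15.1, 16.0, 12.8 and 13.8 CPM in the GDX libraries and 30.2, 33.8 and 32.4 CPM in the E2 libraries. The groups were well apart, and the mean rose 2.23-fold, with 14.4 ± 1.40 CPM in GDX against 32.1 ± 1.82 in E2 (log2 fold change 1.16 ± 0.11, adjusted p = 0.000102). The gene lies at chr1:134646677-134762593 on the plus strand. Syt1, named after its values were seen as the textbook sensor, ranged over 487 to 571 CPM in GDX and 508 to 546 CPM in E2 (log2 fold change −0.01, 95% interval −0.16 to 0.15). Per kb of exon, Syt2 thus made up 2.54% to 2.99% of the sum of Syt1 and Syt2 in GDX and 6.08% to 6.34% in E2.

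Syt10, a calcium-binding synaptotagmin of the same cysteine-bearing group as Syt6 and known from secretion of IGF-1 by olfactory bulb neurons, was 10.93, 10.99, 9.22 and 14.65 CPM in GDX and 31.4, 15.8 and 28.3 CPM in E2. E2 replicate 2 lay only just above GDX replicate 4. The mean rose 2.20-fold, with 11.5 ± 2.29 CPM in GDX against 25.2 ± 8.22 in E2 (log2 fold change 1.14 ± 0.23, adjusted p = 0.023). Syt10 no longer passed when GDX replicate 1 or 2, or E2 replicate 1 or 3, was left out (adjusted p = 0.0724 to 0.102) and with the marker score of other cells as a covariate (1.26, adjusted p = 0.219). The gene lies at chr15:89782393-89841860 on the minus strand. Syt3, of the same group and named after its values were seen, was 49.3 ± 6.26 and 58.2 ± 4.06 CPM and did not pass (0.24, adjusted p = 0.298). Syt9, likewise named afterwards and counted with this group in schemes that exchange its number with Syt5, lay in the other direction without passing, at 56.7 ± 5.35 and 47.1 ± 3.81 CPM (−0.27, adjusted p = 0.195).

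The 250 bases before the start sites of these 3 genes are shown because the genes rose together, with the arm GGTCA of an estrogen response element (or TGACC, the same arm on the other strand) in capitals. They were taken from RefSeq on GRCm38.p6 and run 5′ to 3′ on the strand of the gene, at chr3:103574995-103575244 (plus), chr1:134646362-134646611 (plus) and chr15:89841861-89842110 (minus).
Syt6: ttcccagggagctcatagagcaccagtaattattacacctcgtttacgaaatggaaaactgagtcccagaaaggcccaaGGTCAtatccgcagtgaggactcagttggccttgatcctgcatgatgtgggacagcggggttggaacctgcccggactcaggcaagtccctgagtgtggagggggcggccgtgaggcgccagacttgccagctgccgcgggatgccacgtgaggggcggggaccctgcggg
Syt2: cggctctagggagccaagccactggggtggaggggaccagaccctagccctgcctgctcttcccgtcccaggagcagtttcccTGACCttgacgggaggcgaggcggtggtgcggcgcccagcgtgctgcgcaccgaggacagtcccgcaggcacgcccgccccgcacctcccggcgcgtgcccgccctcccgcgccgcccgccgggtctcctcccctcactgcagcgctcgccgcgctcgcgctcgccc
Syt10: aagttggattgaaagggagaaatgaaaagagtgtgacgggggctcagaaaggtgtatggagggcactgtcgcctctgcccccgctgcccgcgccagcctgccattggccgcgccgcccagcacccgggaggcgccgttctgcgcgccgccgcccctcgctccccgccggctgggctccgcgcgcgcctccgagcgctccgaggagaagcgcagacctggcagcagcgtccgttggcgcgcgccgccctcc
The Syt6 window held 1 such arm, whose first base lay 171 bases before the start site, the Syt2 window held 1 at 167 bases, and the Syt10 window held none. An arm on either strand was present in 35.2% of the 32851 promoter windows of this length and in 33.8% of the 74 windows of the release genes, so holding an arm does not set Syt6 and Syt2 apart. The full estrogen response element, which holds the arm and its reverse complement with 3 bases between them, was in 0.0639% of all windows and in none of the 74. The cAMP response element TGACGTCA was in 1.55% of all windows and in 2 of the 74, but in none of those of the changed genes. RefSeq windows were matched by symbol for 58 of the 77 genes and for 6 of the 8 changed genes (not Rims4 or Syt5). Where a gene had several windows, the one nearest to its GENCODE start is printed, and of the 3 windows of Syt6 and the 2 of Syt2, 1 each held no arm.

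Syt5 and Syt16 fell. Syt5 encodes a calcium-binding synaptotagmin, and its number has been exchanged with that of Syt9 in some naming schemes. Its levels were 226, 253, 262 and 223 CPM in GDX and 169, 200.3 and 188 CPM in E2, so that the highest E2 library lay below the lowest GDX library. The mean was 1.298-fold higher in GDX, at 241 ± 19.5 against 186 ± 15.7 CPM (log2 fold change −0.38 ± 0.09, adjusted p = 0.0301). It no longer passed when GDX replicate 2 or any 1 of the E2 libraries was left out (adjusted p = 0.0572 to 0.2) and with the covariate (−0.48, 0.0573). Syt5 lies at chr7:4539765-4547541 on the minus strand.

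Syt16, a synaptotagmin without calcium-binding residues, was 45.8, 56.7, 56.9 and 51.0 CPM in GDX and 41.0, 37.8 and 40.7 CPM in E2. The gap between the groups was small, and the mean was 1.32-fold higher in GDX (52.6 ± 5.31 against 39.8 ± 1.72 CPM, log2 fold change −0.40 ± 0.10, adjusted p = 0.0466). This call, close to the threshold, was lost in 8 of 19 alternative fits, among them those without GDX replicate 2 or 3 or any 1 of the E2 libraries (adjusted p = 0.0683 to 0.196) and the fit with the replicate number as a block (0.0859). Syt16 lies at chr12:73997661-74273267 on the plus strand, and its exons share 183 bp with Gm29587 on the other strand, which was at 0 in every library.

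Per kb of exon, the most abundant synaptotagmin was Syt11, an isoform with impaired calcium binding, at 147 CPM per kb, followed by Syt5 (91.3), Syt13 (72.7), Syt4 (64.4), Syt1 (64.1) and then Syt6 (21.9). Syt11 was 757 to 832 CPM in GDX and 712 to 749 CPM in E2. Its groups did not overlap, but the difference was not called (log2 fold change −0.11, adjusted p = 0.449). The largest changes that did not pass in this class were in scarce genes: Syt15, at 1.23 ± 0.812 and 0.853 ± 0.319 CPM (−0.53), and Doc2g, at 2.79 ± 1.38 and 3.64 ± 0.355 CPM (0.39), whose exons lie over 63.5% of their length on those of Gm49405 on the same strand and whose level is therefore uncertain. Syt8 was not tested, with 5 and 3 counts in GDX replicates 1 and 2 and none in the other libraries, where 3 counts, the limit that a count of 0 allows, come to 0.0824 to 0.099 CPM. Within the 17 synaptotagmins, the share of Syt6 in the summed CPM per kb was 1.70% to 2.28% in GDX and 6.81% to 7.44% in E2, and that of Syt5 was 17.6% to 19.97% and 13.6% to 15.9%.

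**Figure D2:**
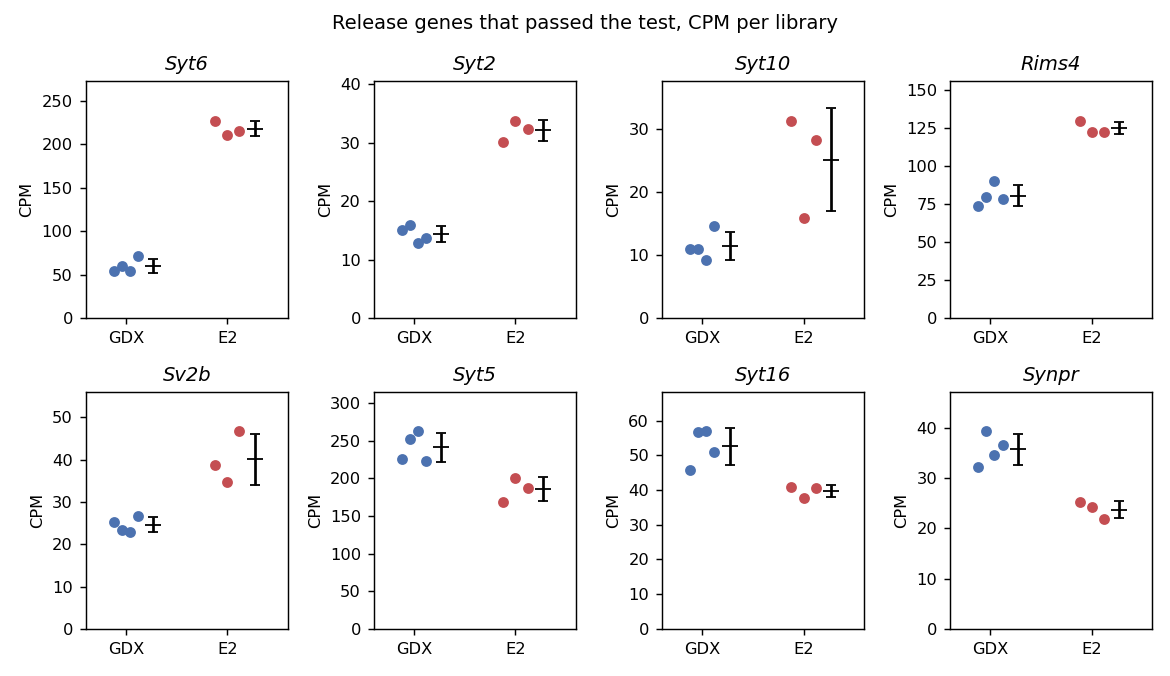
CPM in every library (points, GDX blue and E2 red) with the mean and SD beside them (bars) for the 8 release genes that passed the test. The E2 points of Syt6 (210.5 to 227 CPM) lie far above its GDX points (54.6 to 71.0 CPM), whereas E2 replicate 2 of Syt10 (15.8 CPM) lies close to GDX replicate 4 (14.65 CPM).

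No SNARE gene passed the test. The 12 SNAP and VAMP genes and 14 of the 15 syntaxin genes were tested, with median log2 fold changes of 0.04 for each class. In edgeR 0 genes of either class reached an unadjusted p under 0.05, against 3066 of all 18282 tested genes. The counts of calls with DESeq2 and with limma-voom were also 0. Vamp2, the VAMP of synaptic vesicles, was 795, 861, 953 and 776 CPM in GDX and 882, 882 and 932 CPM in E2, with all E2 values inside the GDX range (log2 fold change 0.09, 95% interval −0.09 to 0.26). Per kb it made up 92.1% to 94.0% of Vamp1, Vamp2 and Vamp3 in GDX and 93.3% to 94.0% in E2. Snap25, named after its values were seen as the textbook partner, was 759 to 894 CPM in GDX and 819 to 933 CPM in E2 (0.05, −0.12 to 0.23, with the sign turned when library sizes alone were used). Snap47, a relative of Snap25 found on several internal membranes, was the most abundant SNARE gene per kb at 236 CPM per kb, close to 228 for Vamp2 and above 124 for Snap25. GDX libraries held 614 ± 57.6 CPM of it and E2 libraries 642 ± 20.9 CPM (0.07, −0.11 to 0.24). 11.6% of the exon length of Snap47 lies opposite Jmjd4 (29.1 and 38.1 CPM), which unstranded reads cannot separate.

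Among syntaxins, Stx12, an endosomal member, held 52.9 CPM per kb and was 162 to 181 CPM in GDX and 165 to 174 CPM in E2 (0.01, with the sign turned under 2 of the 3 other scalings). Stx1a, a plasma membrane syntaxin named after its values were seen, held 28.3 CPM per kb, with 74.45 ± 9.496 CPM in GDX against 76.7 ± 5.05 CPM in E2. The largest changes that did not pass were in Stx17, a syntaxin of autophagosomes (25.9 ± 2.62 and 28.9 ± 0.57 CPM, 0.16), and Stx11, a syntaxin of immune cells (0 to 0.67 CPM in GDX and 0.165 to 1.12 CPM in E2, 0.79 with a 95% interval of −1.497 to 3.07). Stx19 was not tested, with 1 count in E2 replicate 1 and none elsewhere.

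The scarce SNARE genes Vamp5 and Vamp8 were highest in GDX replicates 1 and 4. Vamp5, a VAMP of muscle and endothelium, was 1.93, 0.804, 1.29 and 3.13 CPM in GDX and 0.924 to 1.05 CPM in E2. Vamp8, a VAMP of secretory epithelium and late endosomes, was 4.17, 3.28, 3.43 and 7.39 CPM in GDX and 2.31 to 3.85 CPM in E2. The pooled marker score given above was also highest in these replicates, but its lists differed. In GDX replicates 1 and 4 the astrocyte score was 7.30 and 7.46, against 6.15 to 6.55 in the other libraries. The endothelial score was 5.33 and 5.84, against 3.66 to 4.65. The oligodendrocyte score was high only in replicate 1 (7.74 and 6.79, against 6.73 to 6.88). The microglial score was 3.52 and 3.12, against 3.24 to 3.55. The log2 fold changes of Vamp5 and Vamp8, −0.87 and −0.60, did not pass, and with the pooled score as a covariate they were 0.00 and −0.02. That score was itself lower in E2 on average (5.14 against 5.61 in GDX), so this fit cannot tell where their RNA came from. Unc13d, Vamp3, Syt11, Syt14, Stxbp3 and Stxbp6 also had their highest 2 values in GDX replicates 1 and 4, a set chosen after the values were seen. Syt11 among them is abundant (764 CPM on average). How many of all tested genes shared this pattern was not counted, so it cannot be called particular to release genes. The part of other cells in these levels was not tested.

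**Figure D3:**
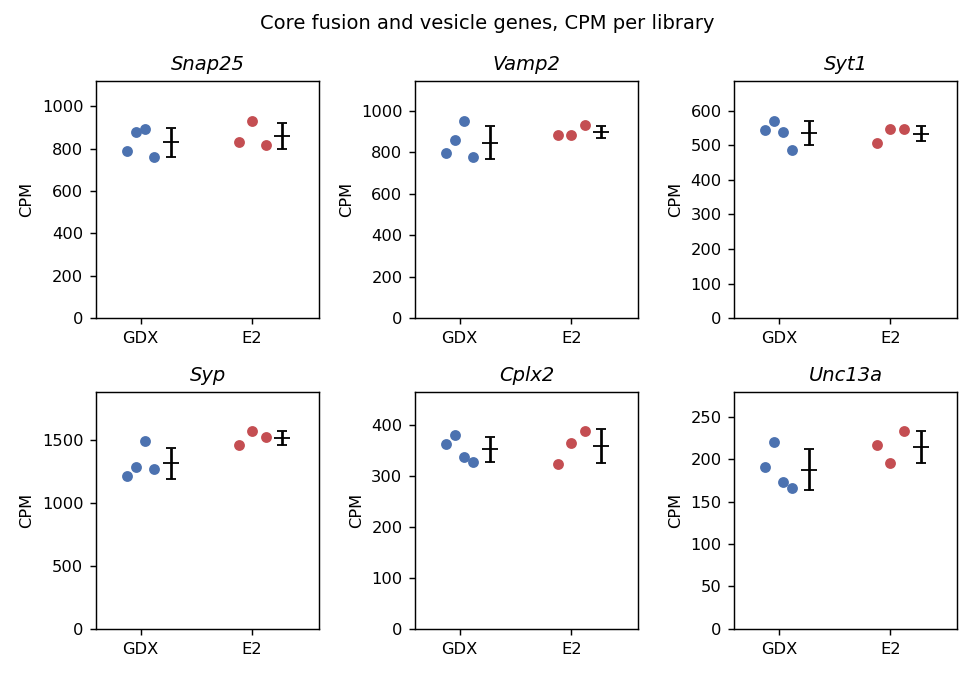
CPM in every library (points, GDX blue and E2 red) with the mean and SD beside them (bars) for 6 genes of fusion, priming and the vesicle membrane, chosen as textbook members. None of the 6 passed the test, and the E2 values of Vamp2 (882 to 932 CPM) lie inside its GDX range (775.5 to 953 CPM).

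Syntaxin-binding proteins had 7 genes tested, none of which passed in edgeR, DESeq2 or limma-voom. In edgeR 1 had an unadjusted p under 0.05, beside 3066 of all 18282 tested genes. The gene with the unadjusted p was Stxbp5, which encodes tomosyn, a decoy that occupies the place of VAMP in the SNARE complex. It was 91.0, 97.1, 91.1 and 112 CPM in GDX and 126, 107 and 115 CPM in E2 (0.25, adjusted p = 0.2), and passed only without GDX replicate 4 (0.32, 0.0394). Stxbp3 was 28.6 ± 3.98 and 23.8 ± 1.14 CPM (−0.27, adjusted p = 0.3) and Stxbp2 16.5 ± 5.17 and 19.6 ± 3.26 CPM (0.25, 0.674). Both encode binding partners of syntaxins outside the classical synapse.

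Complexins were represented by Cplx1 and Cplx2 at similar levels per kb (77.8 and 72.1 CPM per kb). Cplx1 was 184, 169, 171 and 135 CPM in GDX and 150.2, 190.1 and 193 CPM in E2, and Cplx2 was 327 to 380 CPM in GDX and 323 to 388 CPM in E2. Of the 3 tested complexins 0 passed in edgeR, 0 reached an unadjusted p under 0.05, and 0 were called with DESeq2 or limma-voom. Over all 18282 tested genes, 3066 reached an unadjusted p under 0.05 in edgeR. Cplx3, of retina and some cortical neurons, was at 0.396 to 0.757 CPM over all libraries, and Cplx4 was not tested, with 2 counts in GDX replicate 1, 7 in E2 replicate 2 and none elsewhere.

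**Figure D4:**
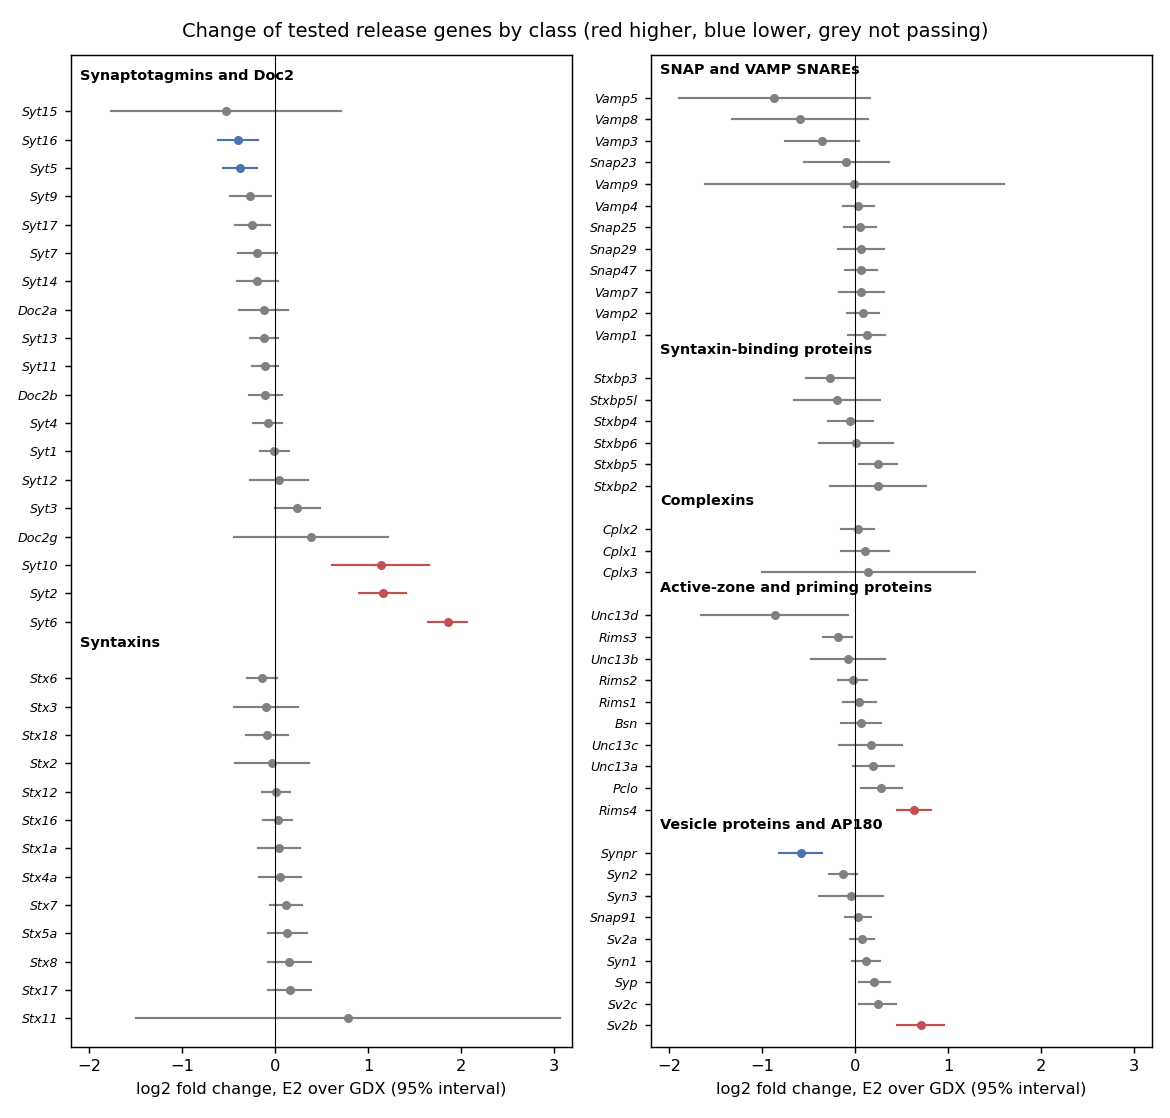
Log2 fold change, E2 over GDX, with its 95% interval for the tested release genes reported here, grouped by class (red higher, blue lower, grey not passing). The intervals of the syntaxins and of the SNAP and VAMP genes shown include 0, and the 3 synaptotagmins in red lie apart at 1.14 to 1.86.

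Of 10 genes of the active zone and of priming, 1 rose and 9 did not pass, and 4 had an unadjusted p under 0.05. Over all 18282 tested genes, 3.88% were called and 3066 had an unadjusted p under 0.05. Rims4, a short RIM protein with a single C2 domain, was 73.9, 79.5, 90.0 and 78.3 CPM in GDX and 129.8, 122.6 and 122.4 CPM in E2. All E2 libraries lay above all GDX libraries, and the mean rose 1.55-fold, with 80.4 ± 6.85 CPM in GDX against 124.9 ± 4.23 in E2 (log2 fold change 0.64 ± 0.08, adjusted p = 0.000769). Rims4 lies at chr2:163859751-163918683 on the minus strand. Its close relative Rims3, likewise a short RIM, went the other way without passing, with 451, 494, 508 and 459 CPM in GDX and 424, 396 and 439 CPM in E2 (−0.19, 95% interval −0.34 to −0.03, adjusted p = 0.195). The long RIM genes Rims1 and Rims2, named after their values were seen, were near 0 in log2 fold change (0.05 and −0.03). Within the RIM family per kb, the share of Rims4 was 16.8% to 18.5% in GDX and 25.3% to 27.3% in E2, and that of Rims3 was 63.3% to 65.1% and 54.8% to 56.4%.

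Unc13a, the main Munc13 priming factor and 71.5% and 74.3% of its family per kb in the 2 groups, was 166 to 220.5 CPM in GDX and 195 to 233 CPM in E2 (0.20, adjusted p = 0.372). Pclo, which encodes the scaffold Piccolo, was 185, 181, 153 and 186 CPM in GDX and 239, 184 and 220.3 CPM in E2 (0.28, adjusted p = 0.17), with E2 replicate 2 inside the GDX range, and it passed with no filter on low counts (0.0338). Bsn, which encodes Bassoon, was 134 ± 7.84 and 140.0 ± 20.7 CPM (0.06). Unc13d, the Munc13 of blood cells, was 3.43, 1.78, 2.36 and 4.24 CPM in GDX and 1.57, 1.98 and 1.32 CPM in E2 (−0.86, adjusted p = 0.248), again highest in GDX replicates 1 and 4, and its log2 fold change was −0.26 with the covariate.

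Vesicle proteins had 9 genes tested, of which 1 rose, 1 fell and 7 did not pass (22.2% called, against 3.88% of all tested genes). Sv2b, an SV2 glycoprotein that binds synaptotagmin on vesicles, was 25.3, 23.4, 22.9 and 26.7 CPM in GDX and 38.7, 34.7 and 46.7 CPM in E2. The groups were apart, and the mean rose 1.63-fold, with 24.6 ± 1.76 CPM in GDX against 40.0 ± 6.10 in E2 (log2 fold change 0.70 ± 0.12, adjusted p = 0.00457). It lies at chr7:75114894-75309262 on the minus strand. Its relatives Sv2a and Sv2c were far more abundant, at 708 ± 16.8 and 746 ± 18.9 CPM for Sv2a (0.08, adjusted p = 0.593) and 147 ± 16.8 and 175 ± 9.78 CPM for Sv2c (0.24, 0.195). Sv2c passed in 3 of 19 alternative fits, each of them without GDX replicate 4 (0.32, 0.0183 with only that library left out). Sv2b remained the smallest of the 3 per kb, with a share of 1.65% to 1.79% in GDX and 2.32% to 2.94% in E2.

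Synpr encodes synaptoporin, a relative of synaptophysin that only some neurons make. It was 32.1, 39.3, 34.6 and 36.6 CPM in GDX and 25.2, 24.2 and 21.8 CPM in E2, with no overlap. The mean was 1.503-fold higher in GDX, at 35.7 ± 3.04 against 23.7 ± 1.73 CPM (log2 fold change −0.59 ± 0.11, adjusted p = 0.00812), and without E2 replicate 3 its adjusted p was 0.0503. Synpr lies at chr14:13284780-13616340 on the plus strand. Syp, the synaptophysin gene and the most abundant release gene per kb (269 CPM per kb), was 1212, 1286, 1488 and 1265 CPM in GDX and 1459, 1568 and 1520 CPM in E2. GDX replicate 3 reached into the E2 range, and Syp did not pass (0.21, 95% interval 0.04 to 0.38, adjusted p = 0.191), but passed without that library (0.28, 0.0199) and with limma-voom (0.24, 0.045). Its log2 fold change was 0.09 with the marker score of other cells as a covariate. The synapsin genes Syn1 and Syn2, named after their values were seen, had log2 fold changes of 0.12 and −0.13, and Snap91 one of 0.03.

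**Figure D5:**
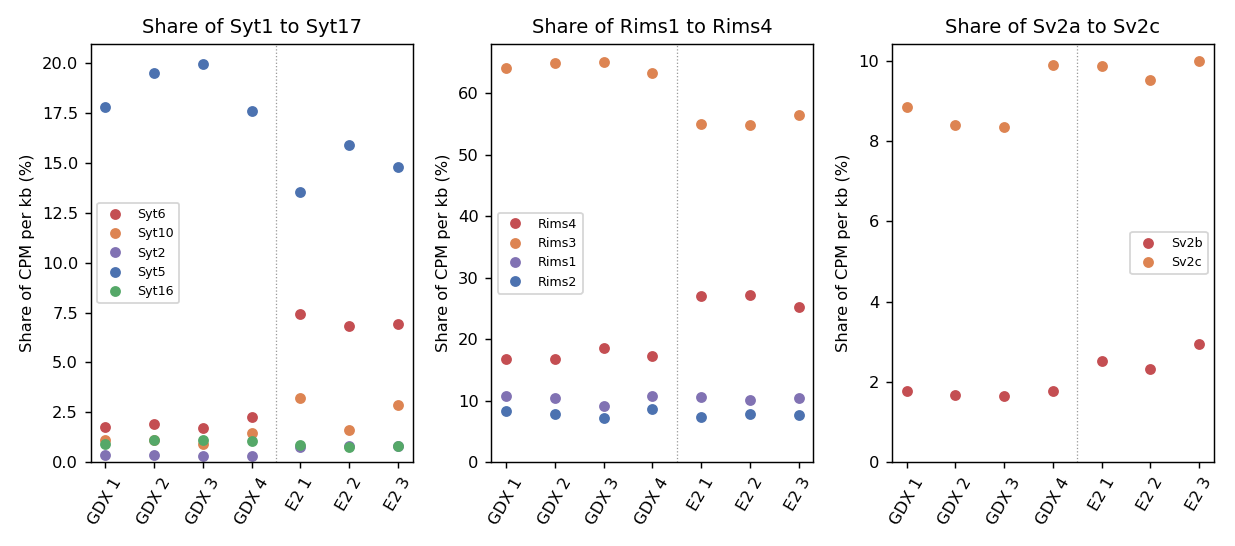
Share of each gene in the summed CPM per kb of its family (percent), in every library, for 5 synaptotagmins, the 4 RIM genes, and Sv2b and Sv2c within the 3 SV2 genes. Rims4 lies at 16.8% to 18.5% in GDX and 25.3% to 27.3% in E2, Rims3 is lower in E2, and Syt6 is above 6.8% in each E2 library.

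A list outside the symbol rule held 88 further genes, mostly of vesicle release and recycling but with Unc79 and Unc80 among them. Of these 85 were tested, and 2 rose, 1 fell and 82 did not pass. This share of 3.53% was near the 3.88% over all tested genes, and the list's median log2 fold change was 0.00. Sytl4, whose product granuphilin tethers secretory granules, was 13.8 to 19.7 CPM in GDX and 147 to 167 CPM in E2 (log2 fold change 3.21 ± 0.11, adjusted p = 3.52e-08). Rab3b, which encodes a GTPase of secretory vesicles, was 136, 144, 167 and 136 CPM in GDX and 102, 112 and 119 CPM in E2 (−0.39 ± 0.09, adjusted p = 0.0329). Napb, which encodes beta-SNAP, a cofactor that takes SNARE complexes apart after fusion, was 335 to 376 CPM in GDX and 422 to 458 CPM in E2 (0.28 ± 0.07, adjusted p = 0.0434). Rab3b no longer passed when GDX replicate 1 or 2 or any 1 of the E2 libraries was left out (adjusted p = 0.053 to 0.206) or with the covariate (0.0606), and the Napb call was lost in 12 of 19 alternative fits, with library sizes alone among them (0.22, 0.0942).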

How the data were processed

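RNA from tagged ribosomes was measured in 7 libraries of polyadenylated RNA without strand information. The deposited values are expected counts, which need not be whole: 33.1% of those above 0 had a decimal part. Trimmomatic 0.38, STAR 2.6.0a, RSEM 1.3.0 and mm10 are named in the submitters' processing notes, with no role or order, and the annotation behind the counts is not given in the sources used here. Symbols, coordinates and exon lengths came from GENCODE vM21 (GRCm38), which held 55203 of the 55384 identifiers.

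Expected counts were rounded and fitted in R 4.3.3 with edgeR 4.0.16 (TMM factors, filterByExpr with a minimum count of 10 and a minimum total of 15, robust quasi-likelihood test, Benjamini-Hochberg adjustment over 18282 genes). Standard errors are the log2 fold change divided by the square root of the F statistic, fold changes use a prior count of 0.125, and 95% intervals use the t distribution. Floors of 3 counts cover counting error only. CPM per kb divides by the union of annotated exons, and class sums and shares carry no test. Marker scores are means of log2 CPM (prior count 2) and were compared over all 35 splits. DESeq2 1.42.0 and limma 3.58.1 (voom) were alternatives. The edgeR script was tested on simulated data first. There 67.37% of 2-fold and 78.79% of 4-fold changes were recovered, and 7.19% of calls were false.

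The genes named are all called members, the 2 most abundant per kb and the 2 largest changes that did not pass in each class, the untested members, and up to 10 called genes of the further list. The members and lists were chosen with earlier results of these data known. Results for a few members are not reported here, although the counts and class medians include all members. No paralog-specific read assignment could be examined, since reads were not used here.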

Additional observations from a re-analysis of the deposited data

Results flagged for a closer look

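In 2 of the 74 tested release genes a single GDX library lay far from the other GDX libraries. This is a smaller share than the about 1 in 20 genes that chance gives. Pclo held 153 CPM in GDX replicate 3, against 181 to 186 CPM in the other GDX libraries. Stx4a, a syntaxin gene of the plasma membrane, held 43.1 CPM in GDX replicate 4, against 55.01 to 56.4 CPM in the others. Neither gene passed the test between the groups, but Pclo did so with no filter on low counts (adjusted p = 0.0338).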

How the results depend on the processing

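Under the scaling, filter, test, dispersion, block and covariate alternatives, 4 to 6 release genes rose and 2 or 3 fell. With 1 library left out, 4 to 7 rose and 0 to 3 fell. Leaving out GDX replicate 2, or the first or the second E2 library, left 1 fall, and leaving out E2 replicate 3 left 0, where edgeR still gave 7 lower genes with an unadjusted p under 0.05, and all 7 libraries gave 3 falls with DESeq2 and 2 with limma-voom. With an adjusted p under 0.01, 4 rose and 1 fell. Over all tested genes the 710 calls became 1609 with no filter, 1400 with DESeq2, 1082 with limma-voom, 322 with the covariate and 364 to 974 with 1 library left out. Syt6, Syt2, Rims4 and Sv2b passed in all 19 alternative fits, with the highest adjusted p at 2.78e-05, 0.00244, 0.0345 and 0.0323. Synpr passed in 18, Syt5 in 14, Syt10 in 13 and Syt16 in 11, and no changed gene changed sign. With library sizes alone, the median over all genes shifted by −0.06, and 28 of 74 release genes had a positive log2 fold change against 41. Snap25, Stx12, Stx16, Stx1a, Stx4a, Cplx2, Vamp4, Bsn, Rims1, Snap91, Syt12 and Stxbp6 changed sign under at least 1 scaling. The fit without GDX replicate 4 and with the covariate was added after the data were seen (5 rose and 3 fell). With the replicate number as a block 5 rose and 2 fell, and Syt16 was the call lost. Same-numbered libraries did not deviate together (correlations of −0.02, −0.04 and −0.06). No pairing by number was thus seen, although so few correlations cannot exclude that same-numbered pools were handled together. Intervals are wide for the 8 tested genes under 5 CPM, where low depth was not separated from spread between libraries.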
